A study of Mus musculus with 18 samples.

Results

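The Dlk1-Dio3 miRNA cluster lies on distal mouse chromosome 12 and was taken here as every annotated miRNA hairpin locus on chromosome 12 that starts between 109500000 and 109800000 (GRCm38). That window holds 58 of the 2009 loci counted in the series. Counts of at least 50 reads, summed over the 18 libraries, were found at 34 of the 58, and these are described singly. Another 3 loci had fewer reads (Mir654 with 17, Mir544 and Mir453 with 2 each), and 21 had none. Just inside the threshold was Mir3072, with 162 reads, and just outside it was Mir654. The nearest annotated loci outside the window were Gm25297 at 109320970, with 0 reads, and Mir1247 at 110278048, with 5530.

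Small RNA was sequenced from adipose-derived stromal cells (ASC), mesenchymal cells grown from the fat of adult mice of strain NGL, and from the extracellular vesicles (EVs) that the cells shed. Naive EV (n = 5) and naive ASC (n = 4) came from cells without interferon gamma, primed EV (n = 5) and primed ASC (n = 4) from cells given interferon gamma for 24 h, and all cells then spent 48 h in alpha MEM with 2% EV-free serum. RNA was purified with TRIzol and RNeasy columns from ASC and with a SeraMir column kit from EVs, so isolation method and the EV against ASC difference cannot be told apart. Whether replicates were separate animals or cultures is not in the labels, and p-values therefore measure a spread between libraries that may be technical. They give every library the molecule subtype of vesicle miRNA, the ASC libraries included, and mark primed libraries with IFG1, IFG2 or IFG1+2 without saying what the marks mean.

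The domain is imprinted. Its protein-coding genes Dlk1, Rtl1 and Dio3 are expressed from the paternal chromosome, and the long non-coding RNAs Meg3, Rian and Mirg and the antisense transcript of Rtl1 from the maternal one. Most of its miRNAs are processed from these maternal transcripts, among them a long run from miR-379 to miR-410, and the RNAs are known from embryo, placenta, brain and stem cells. Dlk1 itself, also called preadipocyte factor, holds back fat cell differentiation.

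Reads were found along the downstream stretch of the cluster only. All 20 loci upstream of Mir379 were listed at 0 in every library: Mir1906-1 and Mir770 in Meg3, the loci from Mir673 to Mir3070b, the loci opposite Rtl1 (Mir431, Mir433, Mir127, Mir434, Mir432 and Mir3071), those in Rian (Mir341, Mir1188, Gm23912 and Mir370) and Mir882. From Mir379 to Mir3072, 1 of 38 loci was listed at 0 (Gm27379). The annotation used for counting places 18 of the 20 upstream loci a second time, on an alternate patch scaffold, at a constant offset of 508 bases, and the patch copies were at 0 as well. A read that matches both copies maps to more than 1 place, and the file headers record no option for counting such reads. The same held outside the cluster: over the 4 patches, all 30 chromosome loci with a patch copy were at 0, against 64.5% of the 1943 chromosome loci without one. The part of the patch copies in these zeros was not tested, so the upstream loci are given as listed at 0, which says nothing of whether Mir127, Mir433, Mir370 or their neighbours were expressed.

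**Figure D1:**
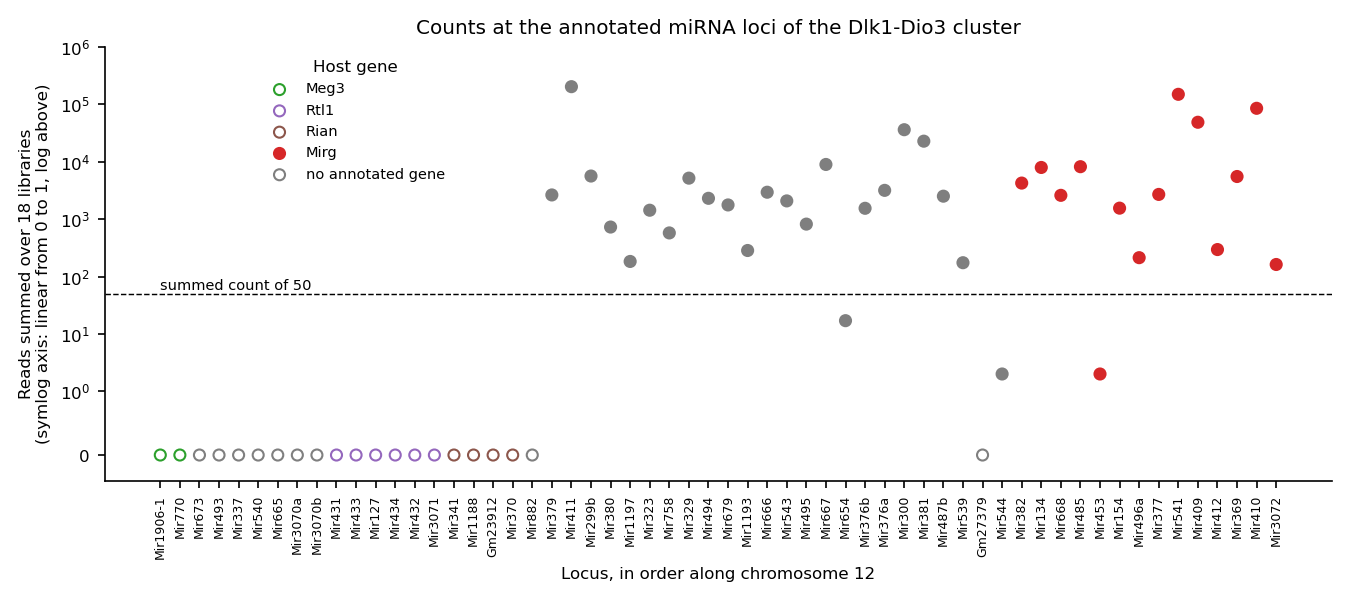
Reads summed over the 18 libraries at each of the 58 loci in chromosome order (y axis: symlog, linear from 0 to 1 and logarithmic above; colours: host gene; open circles: loci at 0). The first 20 loci sit at 0, and 34 of the following 38 lie above the dashed line at 50 reads.

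The mature sequences below, from RefSeq (GRCm38.p6), are those of the loci that the results turn on and of pairs that share or nearly share a seed, the stretch from base 2 to base 8 that pairs with targets. Capitals mark the seed. Counts are per hairpin and do not say which arm was read. RefSeq held mature sequences for all 34 loci.
mmu-miR-376a-3p: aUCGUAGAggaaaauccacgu
mmu-miR-376b-3p: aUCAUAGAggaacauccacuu
mmu-miR-300-3p: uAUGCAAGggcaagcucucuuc
mmu-miR-381-3p: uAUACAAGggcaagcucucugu
mmu-miR-379-3p: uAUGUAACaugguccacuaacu
mmu-miR-411-3p: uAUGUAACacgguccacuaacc
mmu-miR-411-5p: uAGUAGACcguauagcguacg
mmu-miR-1197-5p: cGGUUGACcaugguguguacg
mmu-miR-758-5p: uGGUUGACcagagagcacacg
mmu-miR-541-5p: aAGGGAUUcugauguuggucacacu
mmu-miR-410-3p: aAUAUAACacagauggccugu
mmu-miR-409-3p: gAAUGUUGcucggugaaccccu
mmu-miR-667-3p: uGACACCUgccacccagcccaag
mmu-miR-485-3p: aGUCAUACacggcucuccucuc
mmu-miR-3072-5p: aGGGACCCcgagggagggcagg

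Between miR-376a-3p and miR-376b-3p, 3 of 21 positions counted from the 5′ end differ (G4A, A13C and G20U), 1 of them in the seed. The 3p arms of miR-300 and miR-381 also differ at 3 positions (G4A, U21G and C22U), with 1 in the seed. miR-379-3p and miR-411-3p have the same seed and differ at 2 positions (U10C and U22C), and the 5p arms of miR-1197 and miR-758 share the seed GGUUGAC while differing at 7 positions outside it. Of the 34 loci, 13 lie within Mirg, the non-coding host gene at the downstream end, and 21 lie upstream of it outside annotated genes. Counting ignored strand, and the locus named Mir299b covers RefSeq's Mir299a and Mir299b on opposite strands, so it stands for both. RefSeq names were used where the annotation had a placeholder or another name at the place (Mir380, Mir376a, Mir376b and Mir409).

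Library totals ran from 180812 to 3052942 reads, and primed ASC had the lowest median (500890). The cluster held 623022 of 17629699 reads, or 3.53%. The upstream loci listed at 0 add nothing to this and later shares, which may therefore undercount the cluster. All 10 loci listed as mesenchymal markers had counts in each of the 4 groups. Their summed levels were 565850 to 948128 CPM (reads scaled to TMM-adjusted, not raw, library totals) in EV and 139604 to 350235 CPM in ASC libraries. Mir22, Mir143 and Mir21a of this list were also the loci with the most reads in the series. Of 9 mesenchymal loci tested, 3 were higher and 3 lower in naive EVs than in naive ASC. In primed EVs against primed ASC, 5 were higher and 3 lower. Summed levels of the 7 blood and endothelial loci were 3928 to 27942 CPM in EV libraries and 132 to 863 in ASC libraries, and 7 of 7 were higher in EVs in both comparisons with ASC. Neural loci, of interest because the cluster is active in brain, summed to 9.5 to 179.5 CPM. Of these 9 loci, 6 had reads, and Mir124a-1, Mir124a-3 and Mir9-2 were at 0 in all libraries. Mir338 was higher in EVs in both comparisons (log2 fold change 2.82, SE 0.87, and 3.10, SE 1.12). Mir219a-1 was lower in naive EVs (-2.06, SE 0.61) and did not pass in the primed comparison (-1.30, SE 0.61). Epithelial loci summed to 3122 to 16007 CPM in EV and 3574 to 16528 CPM in ASC libraries, and liver and striated muscle loci to at most 19.8 and 28.9 CPM in any library. Of 9 epithelial loci tested, 3 were higher and 0 lower in EVs in each comparison, Mir141 and Mir96 in both. Over all 245 loci tested, 33.5% were higher and 32.7% lower in the naive comparison, and 35.9% and 32.2% in the primed one. The part of blood and endothelial RNA in the values given next was not tested.

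A few loci carried the cluster. Mir411, on chromosome 12 from 109710175 to 109710270 (plus strand, outside annotated genes), held 32.7% of the cluster's reads summed over all libraries and ranked 13 among all loci. Mir541 (109742409 to 109742498, in an intron of Mirg) held 24% and Mir410 (109743715 to 109743795, in an exon of Mirg) 13.7%. Mir409 (109743158 to 109743237, in an intron of Mirg) held 7.83%. The counting annotation lists Mir409 on the minus strand, opposite to Mirg, while RefSeq places its mature sequences on the plus strand. With Mir300 and Mir381 the first 6 reached 87.7%. The order differed between groups: in naive ASC Mir541 led with 32.5% of the cluster's reads, against 23.4% for Mir411. These are read counts per locus, not divided by length, over loci of 68 to 121 bases. At the other end, Mir3072, Mir539, Mir1197, Mir496a, Mir1193 and Mir412 had 162 to 295 reads each over all 18 libraries.

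As a share of all reads in a library, the cluster took 2.14%, 2.71%, 3.53%, 3.59% and 3.8% in the naive EV libraries from lowest to highest, a mean of 3.15% ± 0.70 (SD, n = 5). Primed EV libraries held 2.4% to 3.39%, with a mean of 2.76% ± 0.39 (n = 5). Naive ASC libraries held 4.53% to 6.32%, with a mean of 5.35% ± 0.74 (n = 4), above every EV library. In primed ASC the share was 5.83% in library 2 and 3.03%, 3.05% and 3.47% in the others, so the group mean of 3.85% ± 1.34 (n = 4) lay between them. A share depends on the rest of the library, and Mir22, Mir143, Mir21a, Mir10a and Mir10b took most EV reads. With these 5 loci left out of the totals, the cluster's mean share was 9.76% in naive EVs and 9.25% in naive ASC, and 9.29% in primed EVs and 5.95% in primed ASC. With the 5 loci set aside, the means were thus no lower in EVs than in ASC.

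Levels are given from here on in the same TMM-scaled CPM, and fold changes and tests come from edgeR's quasi-likelihood fit to all 245 loci with enough reads, all 34 cluster loci among them, with Benjamini-Hochberg adjustment over the 245 and a threshold of 0.05. A lower count from fewer cells or vesicles of a kind and from less RNA per cell or vesicle cannot be told apart in such bulk libraries.

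The first comparison set naive EVs against the naive ASC that shed them. Of 34 cluster loci, 8 were higher in EVs (Mir376a, Mir1197, Mir380, Mir376b, Mir300, Mir381, Mir369 and Mir487b) and 14 lower (Mir3072, Mir667, Mir485, Mir412, Mir409, Mir323, Mir329, Mir382, Mir495, Mir541, Mir668, Mir134, Mir299b and Mir679). Over all 245 loci tested, 33.5% were higher and 32.7% lower, so calls in both directions were the rule in this comparison. The median log2 fold change was -0.52 over the cluster and -0.24 over all loci. The other 12 loci did not pass, with log2 fold changes from -0.84 to 0.37. Primed EVs against primed ASC gave 10 higher, which were the 8 above with Mir377 and Mir411, and 7 lower (Mir3072, Mir667, Mir485, Mir412, Mir409, Mir668 and Mir299b). There the background was 35.9% higher and 32.2% lower, and the medians were 0.13 over the cluster and 0.02 over all loci. The 8 shared increases made up 100% of the naive and 80% of the primed list, and the 7 shared decreases 50% of the naive and 100% of the primed list.

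**Figure D2:**
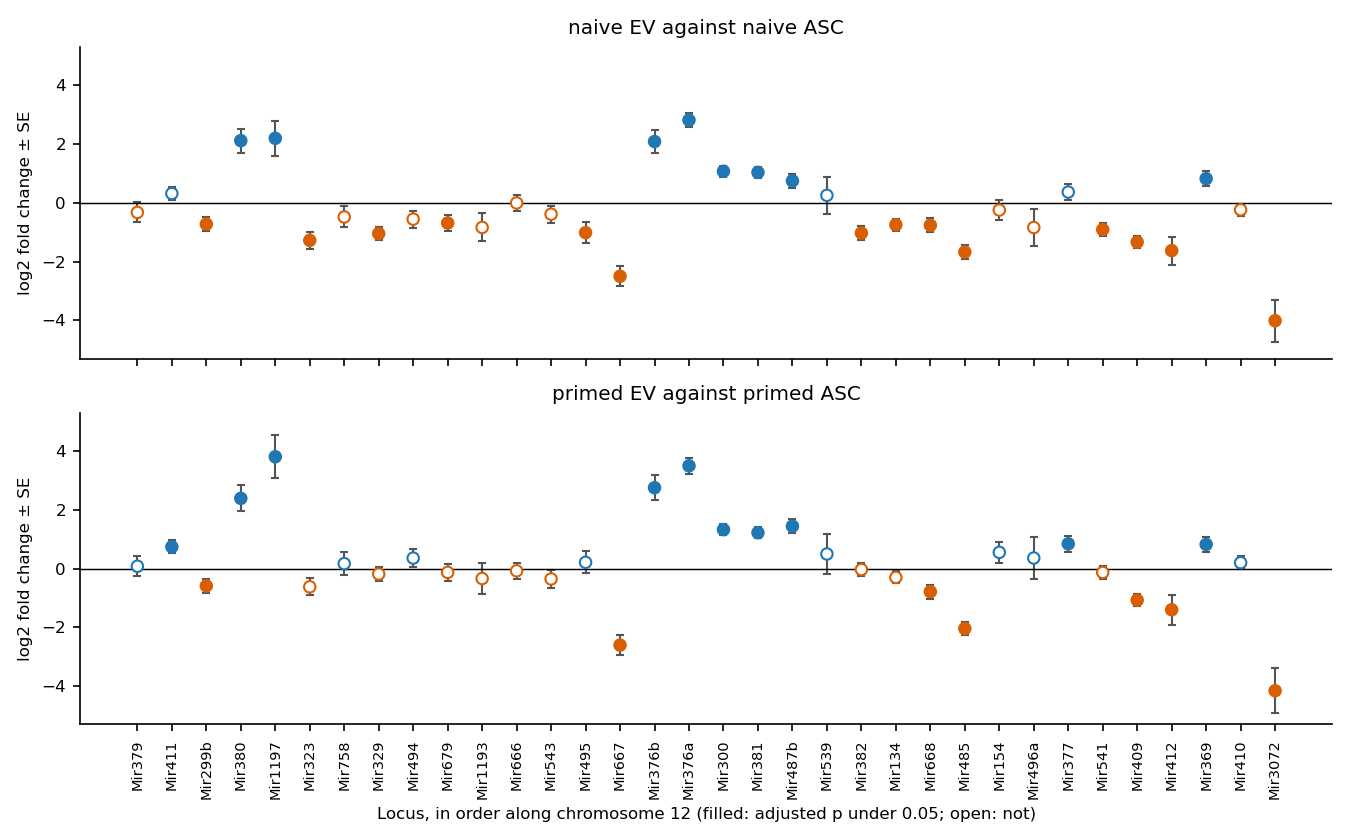
Log2 fold change ± SE of the 34 loci in chromosome order, naive EV against naive ASC above (n = 5 and 4) and primed EV against primed ASC below (n = 5 and 4); filled points have an adjusted p under 0.05. Loci higher in EVs stand next to loci lower in EVs, and 5 loci in a row from Mir376b to Mir487b are higher in both panels.

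Mir376a had the largest increase in naive EVs and the smallest adjusted p of the cluster in both comparisons. miR-376 precursors are known for editing of adenosines in their seeds. Mir376a (109723756 to 109723875) stood at 311, 276, 261, 262 and 231 CPM in naive EV 1 to 5 and at 192, 285, 272, 269.6 and 331 CPM in primed EV 1 to 5. Its level was 29.2, 43.9, 47 and 30.9 CPM in naive ASC 1, 3, 4 and 5 and 30.9, 16.1, 24.9 and 21.1 CPM in primed ASC 2 to 5. The lowest EV library was thus well above the highest ASC library. Naive EVs exceeded naive ASC 7.03-fold (log2 fold change 2.81, SE 0.24, edgeR adjusted p = 6.09e-09) and primed EVs exceeded primed ASC 11.3-fold (3.50, SE 0.26, edgeR adjusted p = 9.72e-10).

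Mir376b (109723456 to 109723541), 214 bases upstream, went the same way. It stood at 148, 121, 95.6, 51.5 and 102 CPM in naive EV 1 to 5 and at 132, 166, 144, 125 and 87.3 CPM in primed EV 1 to 5. In ASC it was at 25.7, 31.1, 35.2 and 4.94 CPM in the naive libraries and at 20.9, 18.8, 12.5 and 22.4 CPM in the primed ones. No ASC library reached an EV library. The log2 fold changes were 2.08 (SE 0.40, edgeR adjusted p = 0.000158) and 2.75 (SE 0.43, edgeR adjusted p = 1.28e-05).

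Mir380 and Mir1197, neighbours 426 bases apart near the start of the stretch with reads, were also higher in EVs. Mir380 (109711779 to 109711890) stood at 78.5, 59.4, 71.3, 38.2 and 52.9 CPM in naive EV 1 to 5 and at 30.1, 59.7, 45.3, 72.5 and 58.2 CPM in primed EV 1 to 5, against 24, 11, 15.4 and 6.17 CPM in naive ASC and 12.7, 8.07, 16.6 and 4.97 CPM in primed ASC. The groups did not overlap, and the log2 fold changes were 2.11 (SE 0.41) and 2.39 (SE 0.44). Mir1197 (109712317 to 109712436) was near the limit of detection in cells: it had 183 reads in all, 0 in naive ASC 5, primed ASC 4 and primed ASC 5, and 3 in the whole primed ASC group. Its EV levels were 15.2, 15.4, 18.9, 6.64 and 13.2 CPM in the naive and 16.9, 12.3, 26, 21.7 and 14.6 CPM in the primed libraries. In ASC they were 3.43, 3.66, 4.52 and 0 CPM in the naive and 1.82, 2.69, 0 and 0 CPM in the primed libraries. In the naive comparison the log2 fold change was 2.19 (SE 0.59, edgeR adjusted p = 0.00297). In the primed one, the ratio of scaled summed counts was 14, with a 95% interval (exact binomial, counting error only) from 4.65 to 69.3, and the fitted value of 3.81 became 4.40 without primed ASC 2, which held 2 of the 3 ASC reads. Its seed partner Mir758 had fitted log2 fold changes of -0.48 and 0.17, neither of which passed.

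Mir300 and Mir381, whose 3p arms differ at 1 seed position, were both higher in EVs at higher levels. Mir300 (109724305 to 109724394) stood at 2984, 2875, 2008, 2212 and 2332 CPM in naive EV 1 to 5 and at 2636, 3128, 2573, 2545 and 2358 CPM in primed EV 1 to 5. Its ASC values were 1306, 1204, 1296 and 921 CPM in naive and 1451, 917, 905 and 938 CPM in primed libraries. Every EV library lay above every ASC library, with log2 fold changes of 1.07 (SE 0.19) and 1.33 (SE 0.19). Mir381 (109726812 to 109726901) had means of 1703 ± 334 and 1619 ± 94.1 CPM (SD, n = 5 each) in naive and primed EVs and of 832 ± 137 and 692 ± 158 CPM (n = 4 each) in naive and primed ASC. It gave 1.03 (SE 0.19) and 1.22 (SE 0.19) on the log2 scale, again without overlap.

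Mir487b (109727333 to 109727414), the next locus downstream, was at 222, 190.1, 177, 247 and 141 CPM in naive EV 1 to 5 and at 165, 149, 204, 163 and 139 CPM in primed EV 1 to 5. In naive ASC it was at 115, 96.1, 126 and 128 CPM, just under the lowest EV library, and in primed ASC at 69.1, 43, 41.5 and 80.8 CPM. The log2 fold changes were 0.75 (SE 0.24, edgeR adjusted p = 0.00904) and 1.45 (SE 0.25, edgeR adjusted p = 3.54e-05). With library totals alone in place of TMM the naive value was 0.25 (edgeR adjusted p = 0.341), a scaling that moved the median of all loci from -0.24 to -0.70. Without the low-count filter it was 0.77 (edgeR adjusted p = 0.0776). Mir369, in an exon of Mirg, was higher by 0.82 (SE 0.27) and 0.83 (SE 0.27), and its calls were also lost with library totals alone (0.39 and 0.13). Mir377 and Mir411 passed in the primed comparison only, at 0.85 (SE 0.28) and 0.74 (SE 0.22), with overlapping groups. Without primed EV 2 Mir377 was at 0.65 (edgeR adjusted p = 0.0564), and with library totals alone both primed calls were lost (0.17 and 0.04).

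The largest decreases were those of Mir3072 and Mir667. Mir3072 (109747878 to 109747960), the last locus of the cluster and the one with the highest hairpin GC content (72.3%), was read mostly from cells. Its levels were 44.6, 22.9, 20.8 and 28.4 CPM in naive ASC and 20.9, 29.6, 24.9 and 12.4 CPM in primed ASC. In EVs it was at 0, 2.38, 4.51, 1.66 and 0 CPM in the naive and at 0, 2.24, 1.13, 0 and 0 CPM in the primed libraries. Naive EVs held 8 reads against 97 in naive ASC, a scaled ratio of 17.5 in favour of cells (95% interval 8.56 to 41.8, counting error only), and primed EVs 7 against 50, a ratio of 15.6 (7.04 to 40.8). The fitted log2 fold changes of -4.01 (SE 0.71) and -4.15 (SE 0.76) became -4.92 without naive EV 3 and -5.48 without primed EV 2.

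Mir667 (109720006 to 109720097) was at 253, 225, 202, 143 and 114 CPM in naive EV 1 to 5 and at 82.7, 245, 211, 189 and 158 CPM in primed EV 1 to 5. In cells it stood at 1245, 720.1, 1027 and 1272 CPM in the naive and at 1853, 909, 992 and 565 CPM in the primed libraries. The groups were apart in both comparisons, with naive EVs lower 5.66-fold (-2.50, SE 0.34, edgeR adjusted p = 2.47e-06) and primed EVs 6.06-fold (-2.60, SE 0.34, edgeR adjusted p = 1.34e-06). Mir485 (109734899 to 109734977), of an exon of Mirg and known as a regulator at synapses, behaved alike. It was at 293, 284, 220.1, 239 and 248 CPM in naive EVs and at 279.9, 275, 254, 201 and 229 CPM in primed EVs, against 1134, 511, 697 and 945 CPM in naive and 1384, 952, 1071 and 663 CPM in primed ASC. Its log2 fold changes were -1.67 (SE 0.23) and -2.04 (SE 0.24), and no EV library reached an ASC library.

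Mir409 and Mir412, 51 bases apart in Mirg, were both lower in EVs. Mir409 stood at 2268, 2029, 1575, 2043 and 1810.0 CPM in naive EV 1 to 5 and at 1856, 1995, 1598, 1733 and 1938 CPM in primed EV 1 to 5, against 5792, 3649, 4230.0 and 5995 CPM in naive ASC and 6050.1, 2751, 3051 and 3474 CPM in primed ASC. EV libraries were close together and all below the cells, at -1.34 (SE 0.21) and -1.07 (SE 0.21). Mir412 (109743289 to 109743368) was at 12.3, 5.94, 16.2, 11.6 and 8.27 CPM in naive EVs and at 3.76, 10.1, 11.3, 11.9 and 0 CPM in primed EVs. Its ASC levels were 32.6, 38.4, 38.8 and 27.2 CPM in the naive and 31.8, 18.8, 16.6 and 16.1 CPM in the primed libraries. The log2 fold changes were -1.63 (SE 0.48) and -1.40 (SE 0.50, edgeR adjusted p = 0.0197), and the primed one was -1.08 without primed ASC 2 (edgeR adjusted p = 0.104). Its primed call was also lost without the low-count filter and in a fit of only the groups compared (edgeR adjusted p = 0.119 and 0.0598).

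**Figure D3:**
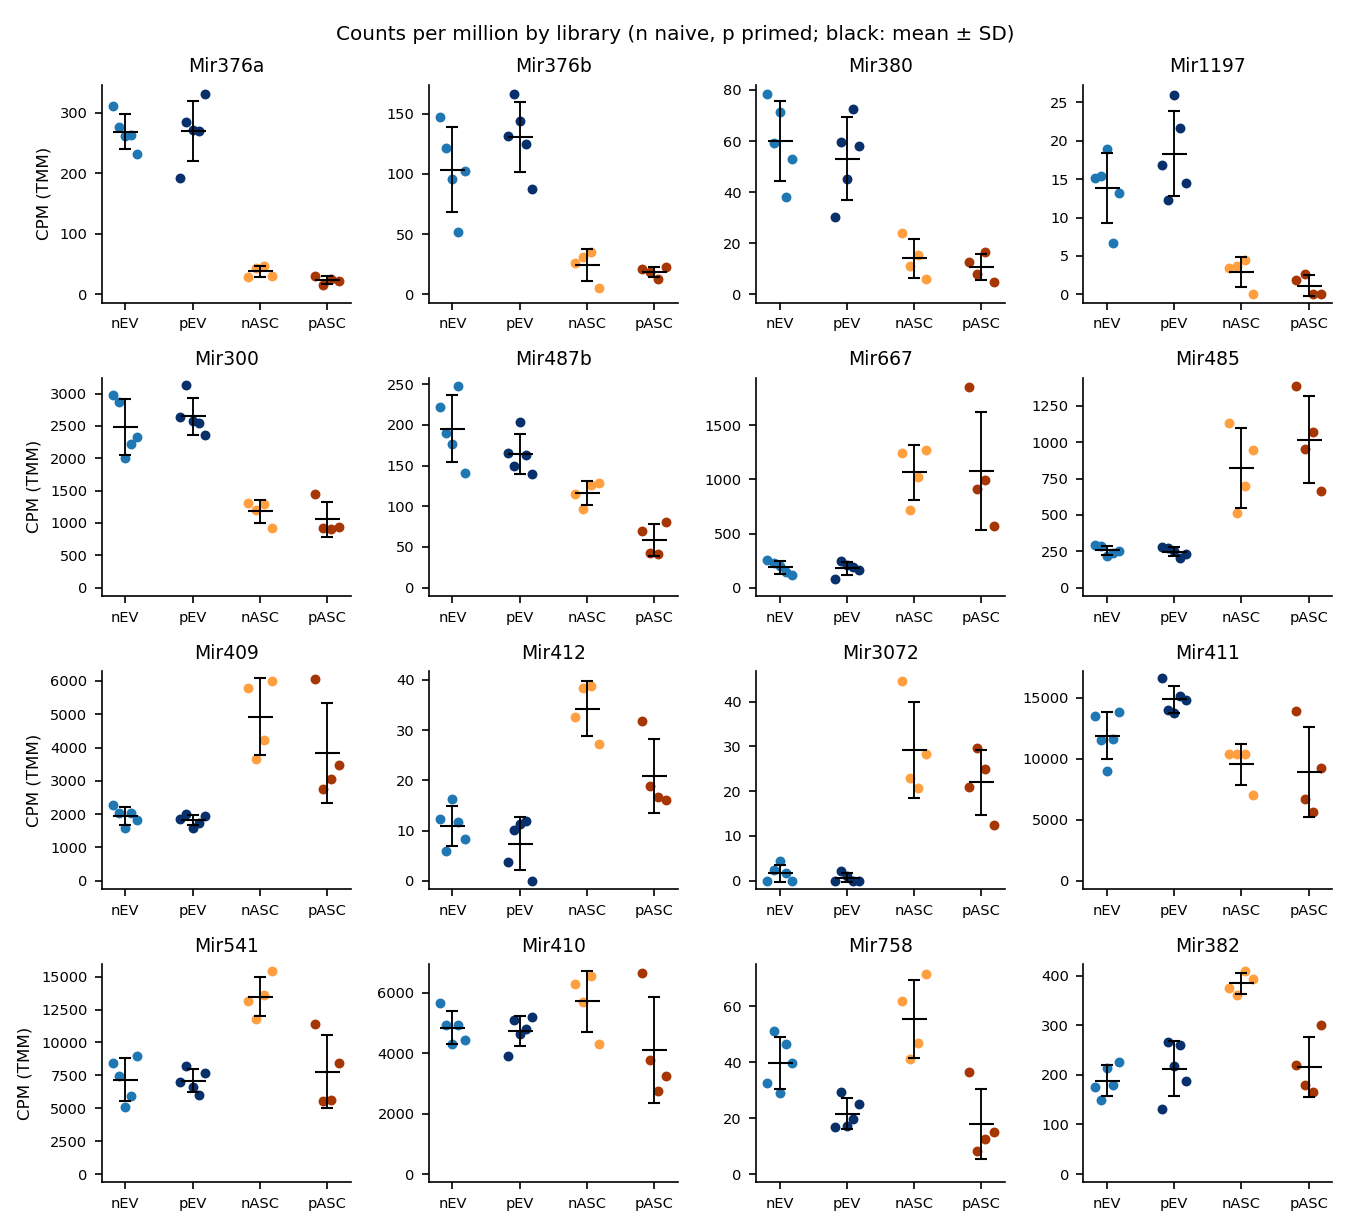
CPM per library of 16 loci in naive EV (nEV, n = 5), primed EV (pEV, n = 5), naive ASC (nASC, n = 4) and primed ASC (pASC, n = 4), each panel on its own linear axis, with the mean and SD in black. EVs are above cells for Mir376a to Mir487b and below them for Mir667 to Mir3072, and in the last row naive ASC stands highest for Mir541, Mir758 and Mir382.

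Mir411 and Mir410, of the loci with the most reads, did not pass in the naive comparison. Mir411 was at 13479.5, 11529, 8998, 11625 and 13831 CPM in naive EV 1 to 5, at 16634, 14012, 13794, 15164 and 14827 CPM in primed EV 1 to 5, at 10372, 10428, 10367 and 7059 CPM in naive ASC and at 13954, 6719.7, 5658 and 9225 CPM in primed ASC. The naive comparison gave 0.32 (SE 0.22, edgeR adjusted p = 0.2) and turned to -0.12 with library totals alone. Mir410 was at 5658, 4919, 4283, 4929.7 and 4418 CPM in naive EVs and 3917, 5087, 4636, 4799.6 and 5204 CPM in primed EVs, against 6279, 5701, 6558 and 4291 CPM in naive and 6642, 3773, 2752 and 3245 CPM in primed ASC. Its groups overlapped, and neither -0.24 nor 0.20 (SE 0.21 each) passed. Without primed ASC 2, the primed value was 0.54 and passed (edgeR adjusted p = 0.0118). With library totals alone it was -0.49 and passed in the other direction (edgeR adjusted p = 0.0469). The naive value of Mir410 also passed as lower with library totals alone (-0.69, edgeR adjusted p = 0.00811).

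Mir541 was at 8414, 7464, 5131, 5893 and 8968 CPM in naive EV 1 to 5 and at 7025, 8199, 6601, 5989.5 and 7693 CPM in primed EV 1 to 5. Naive ASC stood above all of these at 13134, 11779, 13612 and 15420.4 CPM, and primed ASC spread around them at 11391, 5555, 5633 and 8465 CPM. EVs were lower than cells in the naive comparison by -0.91 (SE 0.21, edgeR adjusted p = 0.000841) and did not pass in the primed one (-0.13, SE 0.21, edgeR adjusted p = 0.623), where the value was 0.12 without primed ASC 2. With library totals alone the primed value was -0.82 and passed (edgeR adjusted p = 0.00679). That scaling moved the primed median of all loci from 0.02 to -0.69. The difference between the 2 comparisons was 0.78 (SE 0.30, edgeR adjusted p = 0.267), so the EV against ASC difference was not shown to change with priming.

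Of the other loci lower in naive EVs, Mir323, Mir329 and Mir382 were at -1.28 (SE 0.29), -1.05 (SE 0.23) and -1.03 (SE 0.22), and these 3 calls were kept under all 28 alternatives run. miR-329 and miR-134 are known from neurons, where their levels follow activity and miR-134 limits the size of dendritic spines. Mir134 was lower at -0.75 (SE 0.20), Mir668 at -0.76 (SE 0.24), Mir299b at -0.73 (SE 0.24), Mir495 at -1.02 (SE 0.36) and Mir679 at -0.69 (SE 0.27). Naive ASC 5 decided several of these: without it Mir134, Mir668, Mir299b and Mir679 had edgeR adjusted p-values of 0.051, 0.143, 0.0519 and 0.229, and 10 loci in place of 14 were lower. With TMMwsp factors in place of TMM, Mir134, Mir668, Mir299b and Mir495 had edgeR adjusted p-values of 0.054, 0.078, 0.119 and 0.0742, and without the low-count filter the last 3 had 0.0843, 0.0655 and 0.0803. Mir495 missed the threshold without naive EV 2 (edgeR adjusted p = 0.0646) or naive ASC 4 (0.0703). Mir679 passed in 13 of 28 alternatives and missed the threshold without naive EV 2 or 3, any primed EV library, naive ASC 5 or primed ASC 5 (edgeR adjusted p from 0.0506 to 0.229). Leaving out a primed EV library, which is not part of this comparison, moved its value from -0.69 to -0.65. In the primed comparison, Mir668 and Mir299b were lower at -0.78 (SE 0.24) and -0.59 (SE 0.24), and neither passed without the low-count filter (edgeR adjusted p = 0.125 and 0.271). The Mir299b call was lost without naive EV 1, primed EV 1, 3 or 4, naive ASC 5 or primed ASC 2 (edgeR adjusted p from 0.053 to 0.222).

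Loci with opposite calls stood side by side in places. Of the 33 pairs of neighbouring tested loci, 7 had the same call in both comparisons and 3 had opposite ones. The opposite pairs were Mir299b and Mir380, Mir667 and Mir376b, and Mir412 and Mir369, which lie 49 bases apart in Mirg. The longest run of a single direction was the 5 loci from Mir376b to Mir487b, all higher in EVs, over 3959 bases (109723456 to 109727414). Among the 13 loci within Mirg, 1 was higher and 8 lower in the naive comparison (median log2 fold change -0.84), and 2 were higher and 5 lower in the primed one (median -0.13). The 21 loci upstream of Mirg gave 7 higher and 6 lower (median -0.33), and 8 higher and 2 lower (median 0.22). Over all 245 loci, 33.5% were higher and 32.7% lower in the naive comparison (median -0.24). The primed comparison had 35.9% higher and 32.2% lower (median 0.02). The sets within and upstream of Mirg were split by the annotation and no test was made between them.

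Median hairpin GC content was higher at loci lower in EVs than at loci higher in EVs or without a call. Over the 33 cluster loci with a RefSeq hairpin at the place, the log2 fold change and the GC percentage were correlated at -0.64 (Pearson) and -0.50 (Spearman) in the naive comparison and at -0.68 and -0.63 in the primed one. Across the 182 other tested loci with a hairpin, the values were -0.24 and -0.32, and -0.31 and -0.36. Loci share libraries and are not independent replicates, so these are descriptions. The 2 loci farthest from the median GC were Mir3072 (72.3%) and Mir667 (62%), and without them the cluster's r was -0.43 and -0.48. In the naive comparison, higher loci had a median GC of 42.2% (32.4% to 47.6%), lower loci of 50.3% (34.9% to 72.3%) and loci without a call of 41.2%. The primed comparison gave medians of 42.2% for higher loci, 53.8% for lower loci and 42.0% for loci without a call. Mir495 at 34.9% and Mir382 at 39.5% were lower in naive EVs all the same, so single loci did not sort by GC. The RNA isolation kits differ between the groups, and their part in this pattern was not tested.

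**Figure D4:**
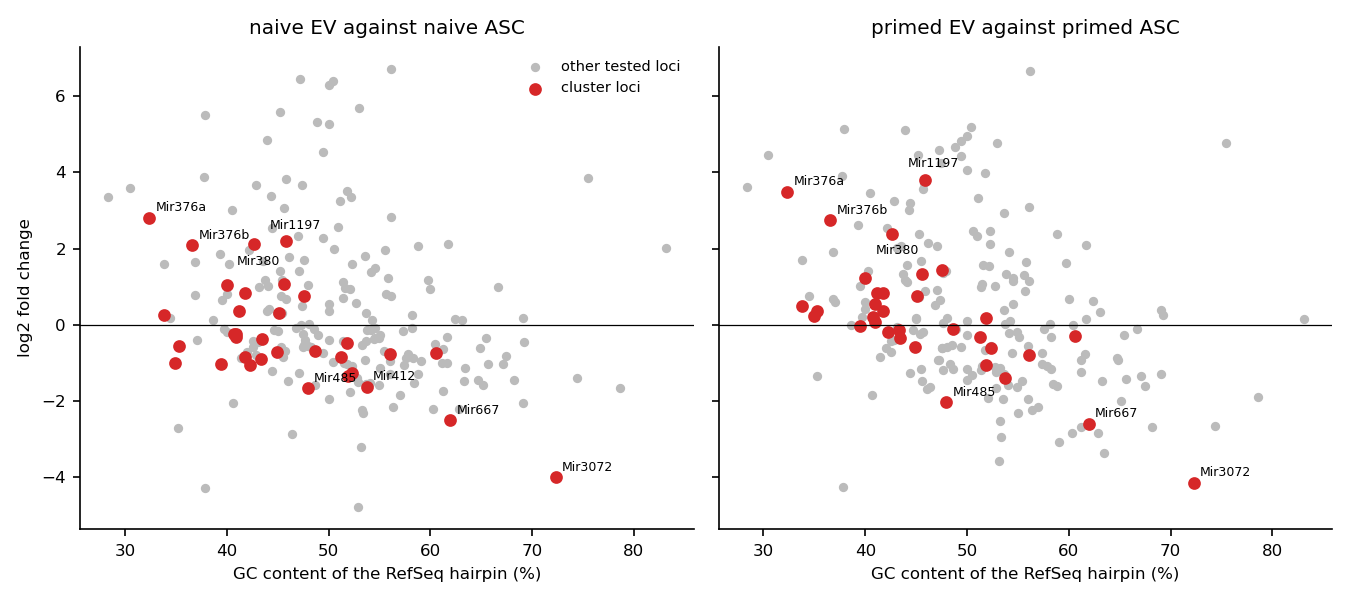
Log2 fold change against the GC content of the RefSeq hairpin (percent), cluster loci in red (n = 33) and the other tested loci in grey (n = 182), for naive EV against naive ASC (left) and primed EV against primed ASC (right). Red points fall from Mir376a at the upper left to Mir3072 at the lower right, with Pearson r of -0.64 and -0.68.

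The letters GGAG are known as a motif of miRNAs sorted into exosomes by the RNA-binding protein hnRNPA2B1. On the mature strand, GGAG was found in 3 of 34 cluster loci (8.82%), namely Mir667, Mir539 and Mir3072, against 34 of the 194 other tested loci with a mature sequence (17.5%). None of the 8 cluster loci higher in naive EVs held it, and 2 of the 14 lower loci did. Over the other loci, 1 of 67 higher and 19 of 58 lower ones had the letters. In the primed comparison, 0 of 10 higher and 2 of 7 lower cluster loci had them. Among the other loci 4 of 73 higher and 20 of 64 lower ones did. The letters were searched in either arm, and the counts do not say which arm was read.

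Other imprinted miRNA loci were listed for comparison (Mir296, Mir298, Mir335, Mir675, Mir483, the Mir344 loci and those of the Sfmbt2 intron). Of these 77 loci, 24 had any reads and 5 were tested. In each EV against ASC comparison 2 of the 5 were higher and 2 lower. The shares over all 245 loci were 33.5% higher and 32.7% lower in the naive comparison. In the primed one they were 35.9% and 32.2%. Mir335, from the imprinted gene Mest, was higher at 3.66 (SE 0.63) in naive and 3.26 (SE 0.69) in primed EVs, Mir344b at 1.70 (SE 0.31) and 1.37 (SE 0.31), and Mir296 was lower at -1.47 (SE 0.28) in both.

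No cluster locus passed the test of interferon gamma priming in EVs. In primed against naive EVs, 0 of 34 loci passed with edgeR, with 1 of the 34 and 25 of all 245 at an unadjusted p under 0.05, and DESeq2 and limma-voom called 0 as well. Over all loci 0.816% rose and 0% fell. The median log2 fold change was -0.02 for the cluster and 0.02 for all loci. The smallest p-values belonged to Mir758, Mir666 and Mir411. Mir758 (109712810 to 109712890) was at 32.4, 51.1, 28.9, 46.5 and 39.7 CPM in naive and 16.9, 29.5, 17, 19.5 and 25 CPM in primed EV 1 to 5. The groups met between 28.9 and 29.5 CPM, and the log2 fold change was -0.85 (SE 0.35, edgeR adjusted p = 0.403). Mir666 was at 201, 247, 187, 128 and 209.9 CPM in naive and at 116, 176, 134, 72.5 and 181 CPM in primed EVs, with -0.52 (SE 0.25, edgeR adjusted p = 0.465) and overlapping groups. Its ASC levels were 192, 178, 215 and 198 CPM in the naive and 193, 113, 99.6 and 159 CPM in the primed libraries. Mir411, at the values above, gave 0.32 (SE 0.20, edgeR adjusted p = 0.585).

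In the cells 5 loci fell on priming and none rose. Over all 245 loci 4.9% fell and 5.31% rose. Mir758 was at 61.8, 41.2, 47 and 71.6 CPM in naive ASC 1, 3, 4 and 5 and at 36.4, 8.07, 12.5 and 14.9 CPM in primed ASC 2 to 5. All primed libraries were below all naive ones, and the log2 fold change was -1.51 (SE 0.40, edgeR adjusted p = 0.0238). It was -2.18 without primed ASC 2. Mir487b, with values given above, fell by 0.95 on the log2 scale (SE 0.26, edgeR adjusted p = 0.0238) and Mir541 by 0.80 (SE 0.22, edgeR adjusted p = 0.0297), both without overlap.

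Mir382 (109733772 to 109733851, in an exon of Mirg) was at 376, 361, 409 and 394 CPM in naive ASC and at 219.9, 180.2, 166 and 301 CPM in primed ASC. The libraries did not overlap, and it fell by 0.82 on the log2 scale (SE 0.24, edgeR adjusted p = 0.0331). In EVs it stood at 176, 149, 213, 179 and 226 CPM in the naive and 132, 267, 217, 261 and 187 CPM in the primed libraries, where the groups overlapped. Mir495 (109718747 to 109718826) was at 73.8, 86, 100.3 and 39.5 CPM in naive and 45.4, 29.6, 16.6 and 28.6 CPM in primed ASC, and at 56.4, 26.1, 27.1, 39.9 and 34.7 CPM in naive and 28.2, 54.8, 29.4, 44.4 and 20.8 CPM in primed EV 1 to 5. The ASC groups overlapped at naive ASC 5, and it fell by 1.26 on the log2 scale (SE 0.39, edgeR adjusted p = 0.0463).

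These calls depended on the libraries, also on some outside the comparison. None of the 5 passed without naive ASC 4, without primed ASC 3 or without primed ASC 4, 2 did without any of 9 other libraries, and 3 without either of another 2. The EV libraries are not compared here but enter the scaling and the estimate of spread. With naive EV 1 or 2 or a primed EV library left out, Mir541 was at -0.71 and the median of all loci at -0.05. With all libraries these values were -0.80 and -0.12. The part of scaling in the lost calls was not tested. Fitting the ASC groups alone also left 0, with the 5 edgeR adjusted p-values from 0.0946 to 0.122. Of the 34 loci 30 had a log2 fold change under 0, with a median of -0.46 for the cluster and -0.12 for all loci.

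Primed ASC 2 stood apart from the other primed ASC libraries at this cluster. It was the highest of the 4 at 25 of 34 cluster loci (73.5%) and the lowest at 0, against the highest at 26.1% of all 245 loci. It is the only primed ASC library marked IFG1 and was the deepest of the group, with 895721 reads against 180812 to 698712 in the others. The part of depth was not tested. In the other 3, all marked IFG2, 19 of 34 cluster loci (55.9%) were below every naive ASC library, against 13.1% of all loci. Primed ASC 2 was singled out for its high values at these same loci. Lower values in the other 3, and more lower calls without it, were therefore favoured in advance and are descriptions. Without primed ASC 2 the fit called 10 cluster loci lower, against 6.94% of all loci, with Mir410 at -0.81 (SE 0.18, edgeR adjusted p = 0.0122) and Mir409 at -0.67 (SE 0.19, edgeR adjusted p = 0.0347) among the added ones. With it, Mir410 was at -0.47 (SE 0.22) and Mir409 at -0.36 (SE 0.23), and neither passed. Among primed EV libraries, those marked IFG1 held 3.39% and 2.88% of reads at the cluster, above the IFG2 libraries at 2.63% and 2.4% and the IFG1+2 library at 2.53%, with too few libraries for a test. With 1 ASC library of the mark IFG1, the mark and the library cannot be told apart.

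**Figure D5:**
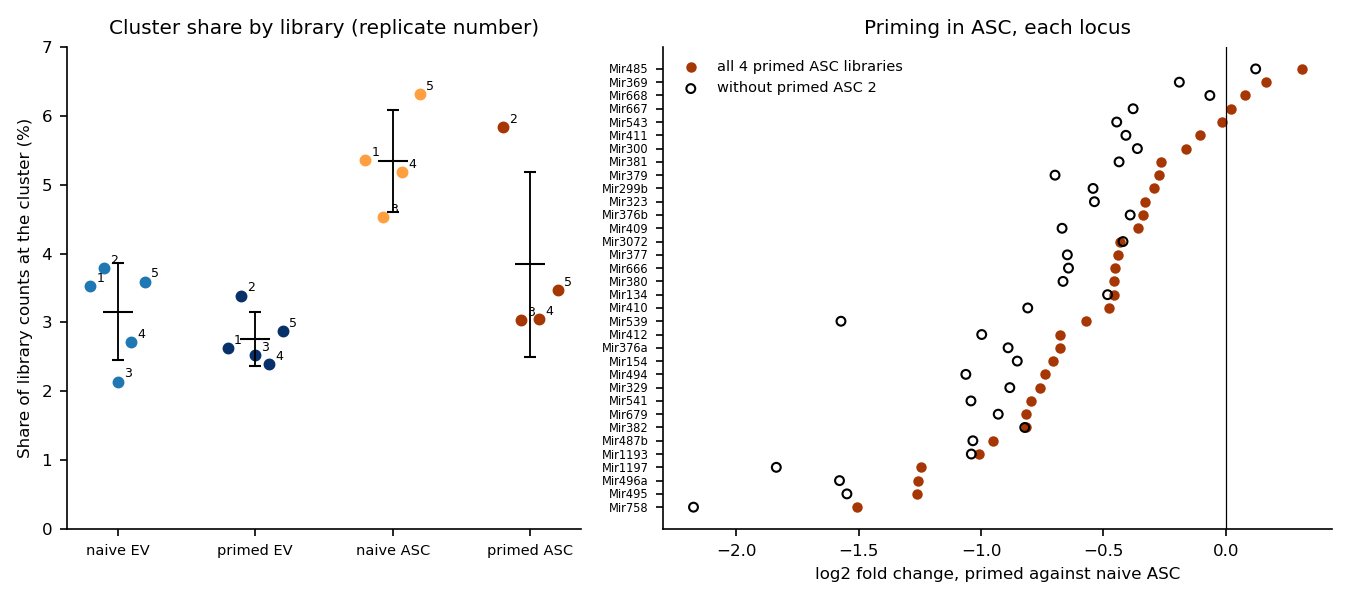
Left, the cluster's share of reads per library (percent, numbers are replicates, black: mean ± SD), where primed ASC 2 at 5.83% lies above the other primed ASC libraries at 3.03% to 3.47%. Right, the log2 fold change of each locus in primed against naive ASC with all 4 primed libraries (filled) and without primed ASC 2 (open); 30 of 34 filled points are under 0.

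The test of whether priming acted differently in EVs and in cells called 0 of 34 cluster loci with edgeR, with 6 of the 34 and 26 of all 245 loci at an unadjusted p under 0.05, and DESeq2 also called 0 of the 34. Over all 245 loci edgeR called 0. The smallest p-values were those of Mir382 (1.00, SE 0.32), Mir541 (0.78, SE 0.30) and Mir329 (0.87, SE 0.33), each with an edgeR adjusted p of 0.267. A positive value means that the locus fell less, or rose more, in EVs than in ASC. Mir329 (109713481 to 109713577) was at 308, 247, 187, 183 and 219.9 CPM in naive and 222, 328, 205, 214 and 266 CPM in primed EVs, and at 618, 402, 486 and 395 CPM in naive and 347, 358, 208 and 207 CPM in primed ASC. EVs overlapped, and the ASC libraries did not. Mir382 passed without primed ASC 5 (1.17, edgeR adjusted p = 0.0492), the only alternative in which a cluster locus did. In that fit 10 of all 245 loci were called higher and 2 lower.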

How the data were processed

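The deposited files hold raw read counts for each miRNA hairpin of a library, which the authors made with featureCounts 1.5.3 per the file headers (1.45 per the submitters' processing notes, which also name STAR 2.0.4 and GRCm38). Counting ignored strand. Ensembl release 76 was the annotation, per the file headers, and GENCODE M21 gave names and host genes. How reads were trimmed and which alignment options were set is not given in the sources used here.

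Loci were filtered with filterByExpr and tested with edgeR 4.0.16 (R 4.3.3) on all 18 libraries, 1 mean per group. SEs were derived from the F statistic and are approximate. On simulated counts for naive EV against naive ASC (245 loci), the test recovered 63.3% of loci changed by 1 and 96.7% of those changed by 2 on the log2 scale, 30 each. The simulation raised and lowered equal numbers of loci and left most unchanged. In the data 33.5% were called higher and 32.7% lower, so recovery there may differ. Alternatives were RLE, TMMwsp or no scaling factors, DESeq2 1.42.0, limma-voom 3.58.1, other filters, only the groups compared, replicate blocks and leaving out each library.

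The members, lists and tests were chosen with earlier results of these data known. Values in every library are given for the 4 loci with the highest mean CPM, the 5 largest increases and decreases among passing loci in each EV against ASC comparison, and loci passing, or with the 3 smallest p-values, under priming. Replicate numbers were taken from the source names. Same-numbered libraries did not deviate together in every pair, so numbers were not used as pairs. No 2 libraries were identical. Reads carried no molecular identifiers, so intervals cover counting error only.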

Additional observations from a re-analysis of the deposited data

Results flagged for a closer look

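In groups of 4 or 5 libraries, 6 of 140 groups checked held a library whose gap to the nearest other exceeded Dixon's 95% value, where chance flags about 1 in 20. Of these, 4 concern primed ASC 2, which stood above the rest of its group. The cluster's share there was 5.83%, against 3.03% to 3.47% in the other primed ASC libraries. Mir494 was at 157 CPM there, against 78.9 to 83.4. Mir300 was at 1451 CPM, against 905 to 938. Mir412 was at 31.8 CPM, against 16.1 to 18.8. Elsewhere, Mir411 was at 7059 CPM in naive ASC 5 and at 10367 to 10428 in the other naive ASC libraries, and Mir539 had 0 CPM in primed EV 1 and 10.2 to 14.1 in the other primed EV libraries.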

How the results depend on the processing

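Counts of cluster loci higher in EVs stayed within 1.5 times under all alternatives in both comparisons with ASC. In the naive comparison 14 were lower in edgeR's fit and 9 with TMMwsp factors. The primed comparison gave 7 lower, 16 with library totals alone and 4 without a low-count filter. In ASC priming 5 were lower, 2 with RLE factors, 0 with TMMwsp factors, 1 without a filter, 2 with a filter of 10 CPM and 0 with only the ASC groups. Leaving out each library gave 0 to 10 lower there, and 0 to 1 higher in the difference of priming effects. Library totals alone moved the median of all loci from -0.24 to -0.70 in the naive and from 0.02 to -0.69 in the primed comparison of EVs with ASC. The sign turned for Mir411 in the naive comparison (-0.12) and Mir410 in the primed one (-0.49) with library totals alone, for Mir541 in the primed one without primed ASC 2 (0.12), and for Mir411 in ASC priming with RLE (0.010), TMMwsp (0.054) and DESeq2 (0.011) and without primed ASC 3 or 4. Leaving out each library gave -0.26 to 0.12 for Mir541 in the primed comparison and -0.41 to 0.061 for Mir411 in ASC priming. The cause was not tested. Without the 5 most abundant loci in the totals, the cluster's share was 9.76%, 9.29%, 9.25% and 5.95% in naive EV, primed EV, naive ASC and primed ASC, and without Mir411 it was 2.04%, 1.64% and 4.14% in the first 3. With a replicate block by source or title number, 7 and 6 loci were lower in ASC priming, and the counts of the other comparisons did not change. Same-numbered pairs had correlations from -0.16 to 0.52, not all over 0.1 in any comparison. Low-count loci such as Mir1197 and Mir3072 are limited by depth.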
